A study of Mus musculus with 7 samples.

Results

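The proteasome is the main protease that degrades ubiquitin-tagged proteins in the cytosol and nucleus. Its genes were followed here in microglia sorted from wild-type (WT) grafts and from cortex beside the grafts of 5xFAD mice. The rule took every gene name made of Psm, 1 letter from a to g and a number. It left out the immunoproteasome genes Psmb8, Psmb9 and Psmb10, together with 4 names marked as pseudogenes. Of the 55341 gene names counted, 45 met it. By role they were 8 genes of the 20S alpha ring, 8 of the 20S beta ring, 6 ATPases and 11 non-ATPases of the 19S cap, 5 activators and inhibitors, and 7 assembly factors.

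The 20S core particle is a barrel in which rings of alpha subunits form the gate and rings of beta subunits carry the proteolytic sites. The 19S cap binds ubiquitin chains, removes them, unfolds the protein with its ATPase ring and feeds it into the core. Other activators, such as PA28 and PA200, can take the place of the cap. Microglia, the resident macrophages of the brain, take up amyloid-β mainly into lysosomes, whereas the proteasome serves their cytosolic and nuclear proteins.

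The 5xFAD line expresses human APP with the Swedish, Florida and London mutations and mutant human PS1 under the neuron-specific Thy1 promoter. Per the labels all mice were 5xFAD on C57BL/6 and 14 weeks of age, and per the study's methods all were female, so both groups share the transgenes. Grafts of cortical cells from C57BL/6 WT embryos were cut out 4 weeks after injection, and small pieces of cortex close to the graft served as controls. CD11b+CD45low cells were sorted from both, which gave 3 libraries from inside and 4 from outside the graft. The comparison asks how microglia that live in graft tissue differ in RNA from those of the neighbouring host cortex. The labels do not say that the libraries came from separate mice, so P-values measure only the spread between these libraries.

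Total counts ran from 18644807 to 25882122 per library, and the members together took 0.36% to 0.426% of them. Levels are given as CPM, the count scaled to the total of its library after TMM normalization. The summed level of 10 microglial markers was 43190 to 49970 inside and 49090 to 55050 outside. The monocyte list of 10 genes summed to 465 to 9395 CPM inside and to 6.83 to 194.5 outside, with inside library 3 the highest and inside library 2 the lowest of the graft libraries. Averaged over libraries, most of the inside sum came from S100a8, S100a9 and Chil3. Their means were 2079, 1920 and 614.3 CPM inside and 22.4, 23.6 and 4.09 outside. In that list 9 of 10 genes had the higher mean inside, Ly6c2 among them with 32.4 CPM inside and 0.384 outside. Of the border-associated macrophage list 8 of 9 genes had the higher mean inside, Mrc1 among them with 39.2 against 9.11 CPM. Stab1, the exception, averaged 477.0 CPM inside and 579.8 outside and made up most of the summed level. That sum overlapped, at 396 to 651 inside and 533 to 633 outside. Astrocyte markers summed to 247 to 298 CPM inside and 326 to 350 outside, nearly all of it Slc1a3. Proliferation genes summed to 157.5 to 230.5 CPM inside and 72.8 to 110.4 outside. Interferon response genes summed to 469 to 847 CPM inside and 253 to 427 outside, highest in inside library 2. The part of these lists in the values of the members was not tested. Neuronal markers stayed at or below 11.4 CPM in every library, and of 6 lymphocyte markers 3 had no count in any.

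Of the 45 members, 44 had enough counts to be tested among 15257 genes. No member passed an adjusted P of 0.01 or 0.05 in the edgeR quasi-likelihood test, nor in limma with voomWithQualityWeights, and DESeq2 called none at 0.05 either. Across all genes the share called at 0.05 was 0.0983% in edgeR, 0.492% in limma and 2.75% in DESeq2. The lowest adjusted P of a member was 0.511 in edgeR, for Psme4, and 0.370 in limma, for Psmd13. At an unadjusted P below 0.05, edgeR had 1 member lower inside, against 3.79% of all genes, and none higher, against 5.76% of all genes. In limma 2 members were lower, Psmd13 and Psme4, against 4.71% of all genes, and none was higher, against 7.47% of all genes.

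The size of any difference was bounded for most members. The 95% interval of the log2 fold change, inside over outside, lay between -1 and 1 for 42 of the 44, against 55.1% of all genes tested. That background holds many low genes, and among genes of at least 10 CPM the share was 88.9%. The exceptions were Psma8 and Psmd10, both below 10 CPM on average. Within -0.5 and 0.5 lay the intervals of 28 members, or 63.6%, against 3057 of all 15257 genes. Of genes with at least 10 CPM the share was 66.7% among members and 34.3% among all. This floor does not match members to genes of the same level, and the part of level in these shares was not tested. Fold changes ranged from -0.40 to 0.19 on the log2 scale with a median of -0.09, where all genes had a median of -0.01.

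**Figure D1:**
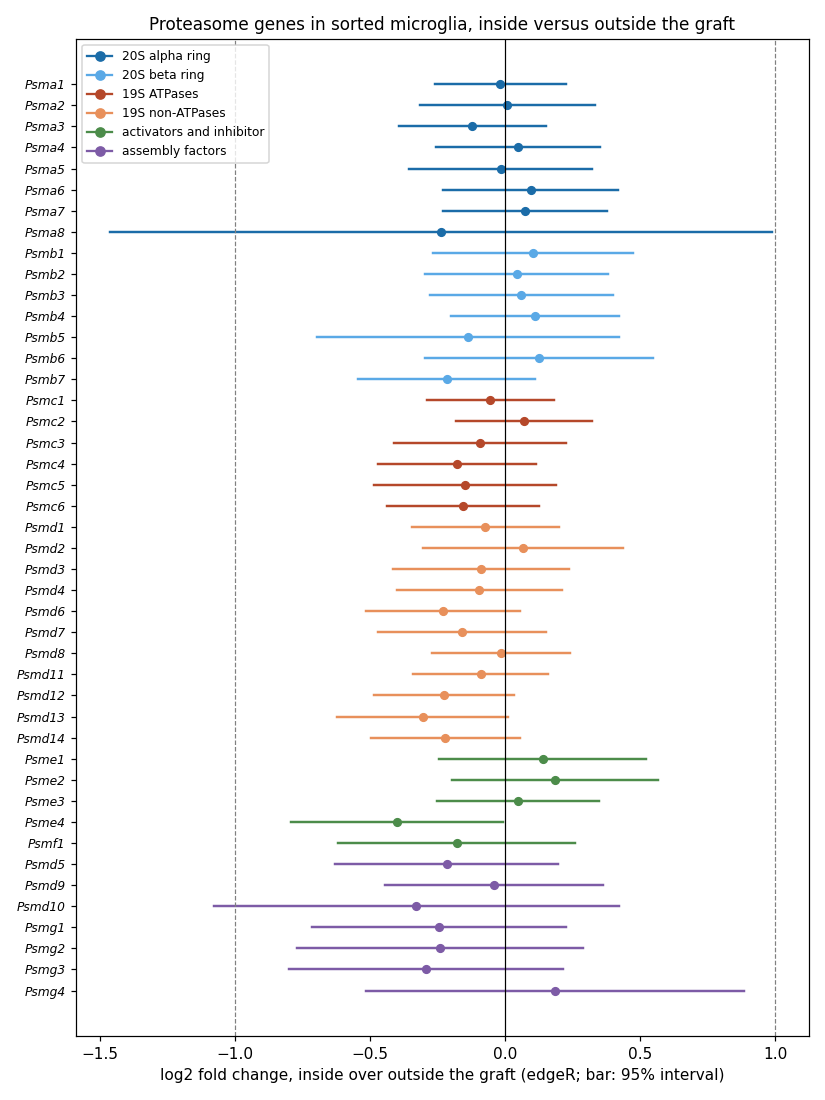
The horizontal axis gives edgeR's log2 fold change (above 0 is higher inside) with its 95% interval, for the 44 tested members coloured by class. Dashed lines mark -1 and 1, which only the intervals of Psma8 and Psmd10 cross, and 15 of the 17 points of the 19S cap lie to the left of 0.

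Fewer cells of a type and less RNA per cell cannot be told apart in such bulk libraries, and the following values are relative to all RNA of each library. By direction alone, 29 of the 44 members had a log2 fold change below 0, against 50.8% of all genes tested. Of the 19S cap 15 of 17 genes were below 0, with a median of -0.10, whereas 6 of 15 tested genes of the 20S core were below 0 and their median was 0.04. Without 1 library the core median ran from -0.01 (without inside library 2, or without outside library 3) to 0.10. These counts were not tested, since members of a class are not independent of each other. Without inside library 3, which had the highest sum of the monocyte list, 11 of the 17 cap genes were below 0. Without inside library 2 the count below 0 for the 20S core rose to 10 of 15. The part of the monocyte list in these directions was not tested.

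Promoter stretches are shown for subunits of both particles, because shared promoter letters are one feature that the choice of members did not use. RefSeq windows from 250 bases before to 50 after the start, on GRCm38.p6, were found for 37 members. Printed are the 120 bases before the start on the gene's strand. Capitals mark matches, on either strand, to TGACNNNGC and TGAGNNNGC, forms of the antioxidant response element that Nfe2l1 and its relatives can bind, to CCGGAAG, a core that ETS factors bind, and to CCAAT, the box of NF-Y. The first 3 belong to the 20S core (Psmb3 at chr11:97703314-97703433, plus strand; Psmb5 at chr14:54617996-54618115, minus strand; Psmb6 at chr11:70525237-70525356, plus strand). The next 3 belong to the 19S cap (Psmc6 at chr14:45329704-45329823, plus strand; Psmd6 at chr14:14120946-14121065, minus strand; Psmd12 at chr11:107479408-107479527, plus strand). The last is the activator Psme4, at chr11:30771655-30771774 on the plus strand.
Psmb3: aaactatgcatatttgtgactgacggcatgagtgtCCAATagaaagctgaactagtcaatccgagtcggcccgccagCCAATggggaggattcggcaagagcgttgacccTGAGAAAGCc
Psmb5: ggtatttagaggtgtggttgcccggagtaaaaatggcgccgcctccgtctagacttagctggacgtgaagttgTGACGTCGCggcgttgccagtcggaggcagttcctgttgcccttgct
Psmb6: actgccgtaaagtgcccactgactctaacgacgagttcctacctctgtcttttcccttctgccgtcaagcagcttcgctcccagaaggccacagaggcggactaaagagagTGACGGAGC
Psmc6: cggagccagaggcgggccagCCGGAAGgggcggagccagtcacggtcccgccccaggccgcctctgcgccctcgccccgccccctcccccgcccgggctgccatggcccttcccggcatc
Psmd6: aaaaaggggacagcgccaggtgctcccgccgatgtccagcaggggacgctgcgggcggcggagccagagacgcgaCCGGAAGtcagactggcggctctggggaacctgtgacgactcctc
Psmd12: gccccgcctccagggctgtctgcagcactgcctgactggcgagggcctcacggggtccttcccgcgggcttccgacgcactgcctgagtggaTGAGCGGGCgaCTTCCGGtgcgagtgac
Psme4: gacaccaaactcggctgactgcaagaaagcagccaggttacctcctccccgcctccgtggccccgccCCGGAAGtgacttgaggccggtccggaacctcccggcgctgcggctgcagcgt

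The strings were searched on both strands over the whole window, may overlap one another, and were picked after their shares had been seen. In the stretches shown, CCGGAAG begins 100 bases before the RefSeq start in Psmc6, 45 in Psmd6 and 53 in Psme4, and lies on the other strand 17 bases before it in Psmd12. TGACNNNGC begins 47 bases before the start in Psmb5 and 9 in Psmb6. Psmc6, Psmd12 and Psme4 also hold it in their windows, outside the stretches shown. Each gene shown has a match in its stretch, and the shares below cover all members with a window. GENCODE places the start of several of these genes further upstream, within the stretch. CCGGAAG stood in the window of 9 of the 14 cap genes with a promoter, or 64.3%, and of 1 of 12 core genes, Psma6. Over all genes tested that had a window the share was 20.6%, and over all promoters 9.93%. CCAAT had the other order, with 7 of 12 core genes and 4 of 14 cap genes, against 42.8% of the genes tested and 41.1% of all promoters. TGACNNNGC alone was found for 6 of 37 members, or 16.2%, close to the 17.2% of genes tested and the 14.0% of all promoters. Core and cap were alike in it, with 2 of 12 and 2 of 14 genes. Either of the 2 TGA forms stood in the windows of 7 core genes and 5 cap genes, with 35.6% among genes tested and 30.8% among all promoters. A match is a run of letters, not a site shown to be bound.

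The alpha ring forms the gate and the assembly base of the core. Of its 8 genes 4 had a log2 fold change above 0 and 4 below in edgeR, with a median of -0.005. In limma 6 were above 0 and 2 below, with a median of 0.05. Leaving out Psma8, the edgeR fold changes lay between -0.12 (Psma3) and 0.09 (Psma6), and all 7 intervals fell within -0.5 and 0.5. Psma8, the testis form of the alpha 4 subunit, had the widest interval of all members. Its CPM was 8.36, 2.93 and 13.0 inside and 18.5, 5.69, 5.71 and 8.42 outside. Both groups span low and high libraries and overlap almost entirely. The log2 fold change was -0.24 (95% interval -1.47 to 0.99, n = 3 and 4, edgeR adjusted P = 0.947).

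In the beta ring, Psmb6, Psmb7 and Psmb5 carry the caspase-like, trypsin-like and chymotrypsin-like sites. Psmb5 (chr14:54614119-54618022) stood at 20.5, 29.1 and 17.3 CPM inside and at 20.4, 33.9, 20.7 and 23.1 outside. Library 2 was the highest in each group, and the groups overlap. This gave a log2 fold change of -0.14 ± 0.25 (SE; n = 3 and 4, edgeR adjusted P = 0.924). Of the 75-base windows of its principal transcript, 40% also occur in other genes, the pseudogene Gm3375 sharing the most, so that reads from them could be lost. The share was 39.8% for Psma5, 33.1% for Psmb3 and 21.3% for Psma3, and 29 of the 45 members shared no window.

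Psmb6 (chr11:70525367-70527858) had the same pattern, with 110.7, 149.4 and 120 CPM inside and 99.95, 159.5, 96.7 and 108.1 outside. Again the second library led in each group. Its log2 fold change was 0.13 ± 0.19 (SE; edgeR adjusted P = 0.906). Psmb7 (chr2:38588036-38644087) differed from the other 2 catalytic genes in that the groups did not overlap. It had 37.6, 39.7 and 38.3 CPM inside and 52.5, 44.5, 39.9 and 42.4 outside, so that the gap between the groups was narrow and outside library 1 stood highest. Its fitted log2 fold change was -0.22 ± 0.15 (SE; edgeR adjusted P = 0.725). With RLE or upper-quartile factors in place of TMM, the Psmb7 groups overlapped. Exons of Nek6 lie antisense to Psmb7, and the counting did not use strand. Of the windows of Psmb7, 24.1% also occur in other genes, the most in Nek6.

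The structural beta genes Psmb1, Psmb2, Psmb3 and Psmb4 had log2 fold changes of 0.10, 0.04, 0.06 and 0.11, each with an interval across 0. Psmb11, the beta 5 subunit of cortical thymic epithelium, had 0 counts in all 7 libraries, which allows at most 3 counts, or 0.116 to 0.161 CPM per library. This limit covers counting error only.

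Every inside library lay below every outside library for 3 members, Psmb7, Psmd12 and Psmd14, against 5.02% of all genes, and above for none, against 5.65% of all genes. With size factors (RLE) or upper-quartile factors Psmd12 and Psmd14 were left, and with library size alone Psmd13 joined the 3. Psmd12 and Psmd14 were named after their values were seen.

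**Figure D2:**
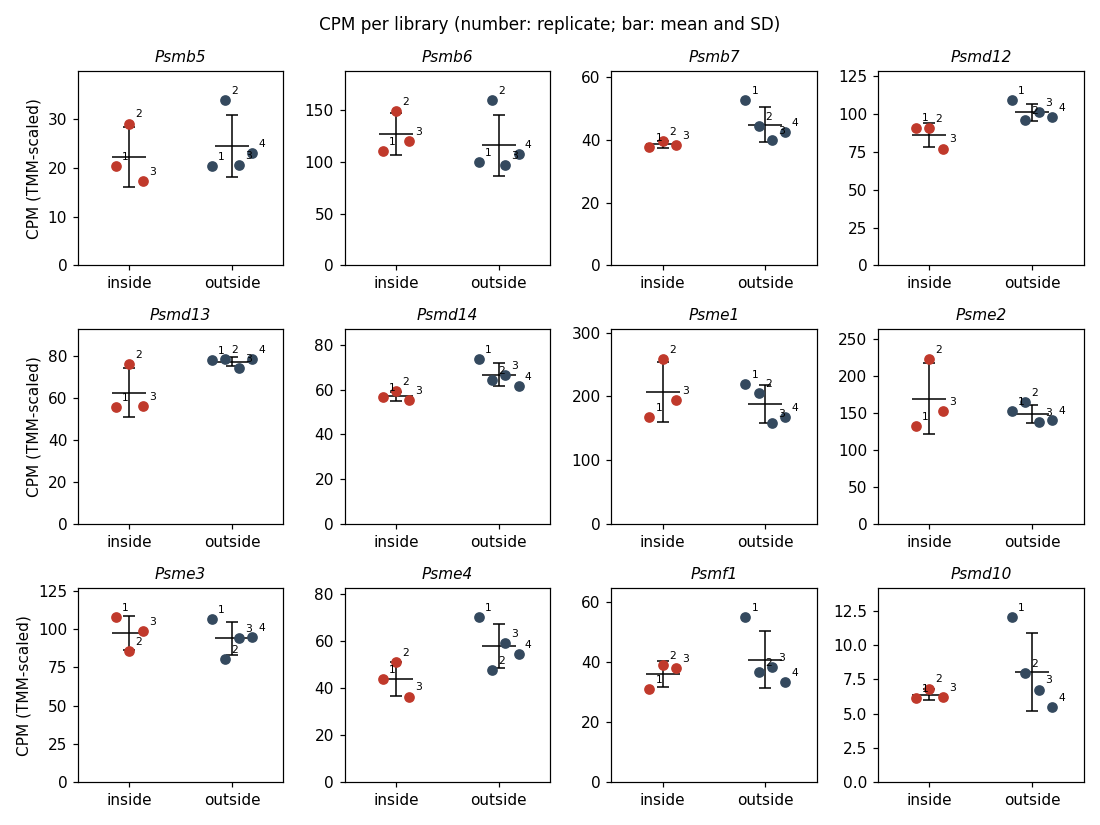
The vertical axis gives TMM-scaled CPM from 0 for 12 members, each point a library with its replicate number, in 3 inside and 4 outside libraries, with bars for the mean and SD. Only Psmb7, Psmd12 and Psmd14 show groups that do not overlap on this scaling (Psmb7 overlaps with RLE or upper-quartile factors), and library 2 leads for Psmb5 and Psmb6 in both groups.

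The 6 ATPases of the cap form the ring that unfolds substrates and opens the core. Of these, 5 had a log2 fold change below 0, with a median of -0.12. Psmc4 had the most negative value, with 92.5, 103.5 and 95.8 CPM inside and 100.5, 129.3, 96.3 and 114.0 outside. The groups overlap, and outside library 2 was the highest. The log2 fold change was -0.18 ± 0.13 (SE; edgeR adjusted P = 0.756). Psmc2 was the only one above 0, at 0.07 ± 0.11. All 6 intervals lay within -0.5 and 0.5.

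The 11 non-ATPases form the scaffold, the ubiquitin receptors and the lid with its deubiquitinase. Here 10 of 11 were below 0 in edgeR, all but Psmd2, with a median of -0.10. In limma 10 of 11 were also below 0, but the exception was Psmd8, at 0.002, and Psmd2 was at -0.04. Psmd2 had 89.2 CPM in outside library 1, against 134.7 to 146.3 in the other outside libraries. Psmd14 (chr2:61711694-61800376), the deubiquitinase that cuts ubiquitin chains off the substrate, had 56.5, 59.3 and 55.2 CPM inside and 73.6, 64.3, 66.3 and 61.7 outside. The groups did not overlap, and the lowest outside library was close to the highest inside library. Its log2 fold change was -0.22 ± 0.12 (SE; edgeR adjusted P = 0.639).

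Psmd12 (chr11:107479484-107504362), a lid subunit, stood at 90.95, 90.5 and 77.1 CPM inside and at 108.8, 95.9, 101.1 and 97.8 outside. No inside library reached the outside range. On the log2 scale the fold change was -0.23 ± 0.12 (SE; edgeR adjusted P = 0.589). Psmd13 (chr7:140881968-140898643), another lid subunit, had the most negative value of the cap, with 55.8, 76.1 and 56.2 CPM inside and 78.2, 78.6, 74.4 and 78.7 outside. Inside libraries 1 and 3 were low while inside library 2 lay within the outside range. This gave a log2 fold change of -0.31 ± 0.14 (SE) in edgeR (adjusted P = 0.546) and -0.32 ± 0.14 in limma (adjusted P = 0.370). Sirt3 lies antisense to part of Psmd13, so reads of the pair cannot be told apart where they overlap. Of the windows of Psmd13, 14% also occur in other genes, the most in Sirt3.

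The ubiquitin receptor Psmd4 was at -0.10, and the scaffold subunits Psmd1 and Psmd2 were at -0.07 and 0.07 on the log2 scale. Psmd6 was at -0.23, Psmd7 at -0.16, and Psmd3, Psmd8 and Psmd11 between -0.09 and -0.02. No interval of these genes excluded 0.

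Sums over subunits overlapped between the groups for the core and for the cap. The lowest cap sums were found inside, but inside library 2 lay above outside libraries 1 and 3. The 7 common alpha and 7 beta genes of the core summed to 1248, 1477 and 1271 CPM inside and to 1321, 1496, 1180 and 1215 outside. Cap genes summed to 1783, 1862 and 1664 CPM inside and to 1853, 1965, 1828 and 1954 outside. The ratio of the core sum to the cap sum was 0.700, 0.793 and 0.764 inside (0.753 ± 0.048, SD, n = 3) and 0.713, 0.761, 0.646 and 0.622 outside (0.685 ± 0.064, SD, n = 4). The ratios overlap, since inside library 1 lay below outside libraries 1 and 2.

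The libraries also differed among themselves. Inside library 2 and outside library 2 stood above the mean of the 7 libraries for 12 and 13 of 14 core genes, with median deviations of 0.20 and 0.18 on the log2 scale. Outside library 3 was above it for 1 of 14, with a median of -0.19. In the cap the library medians ran only from -0.15, in inside library 3, to 0.08, in outside library 2.

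**Figure D3:**
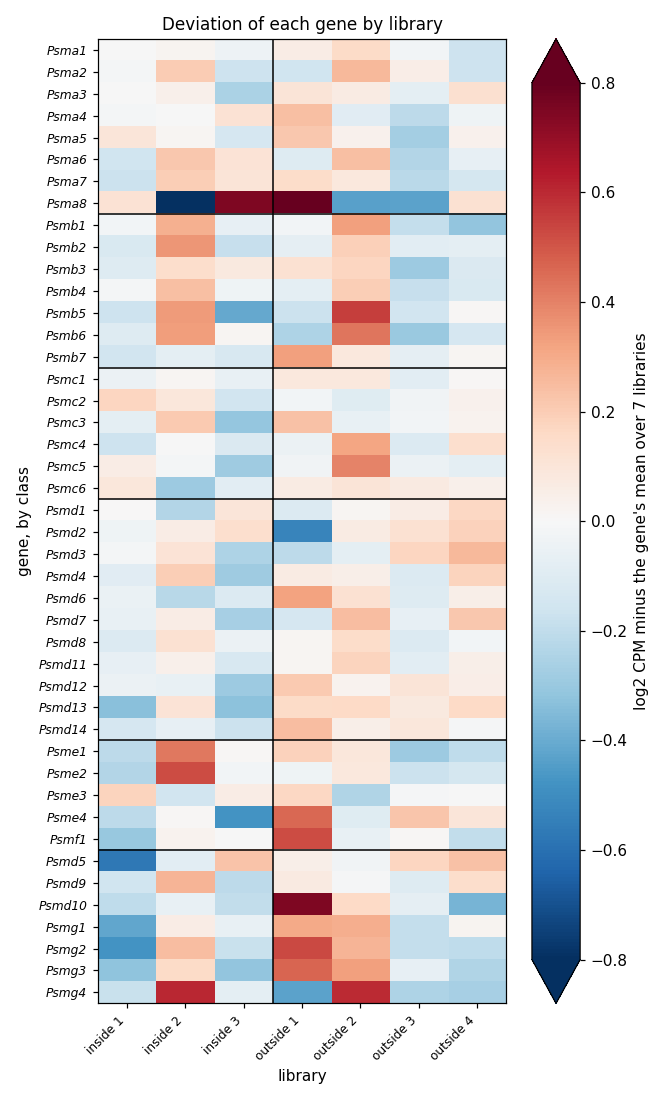
Colours give each member's log2 CPM minus its own mean over the 7 libraries (columns), with members as rows by class and a vertical line between the 3 inside and 4 outside libraries. Red runs through the 20S rows of inside library 2 and outside library 2, and no class has one colour on each side of the line.

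Psme1 and Psme2 encode the subunits of PA28αβ, an interferon-inducible activator linked to antigen processing. Psme1 had 166.9, 258.6 and 194.7 CPM inside and 219.7, 205.7, 158.3 and 167.7 outside. Inside library 2 was the highest of all, and the rest were mixed between the groups. The log2 fold change was 0.14 ± 0.17 (SE; edgeR adjusted P = 0.880).

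Psme2 followed with 131.9, 222.6 and 152.7 CPM inside and 151.7, 164.6, 137.8 and 140.7 outside. Inside library 2 was again the highest and inside library 1 the lowest, so that the groups overlap. In edgeR the log2 fold change was 0.19 ± 0.17 (SE; adjusted P = 0.822), and without inside library 2 it turned to -0.06. That library also had the highest interferon response genes, whose part in this value was not tested. Of the windows of Psme2, 51.7% are shared with other genes, the most with Psme2b.

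Psme3, the nuclear PA28γ, had 107.6, 85.4 and 98.9 CPM inside and 106.8, 80.5, 94.4 and 94.7 outside, which cover the same range. Its log2 fold change was 0.05 ± 0.13 (SE; edgeR adjusted P = 0.958).

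Psme4 (chr11:30771726-30880361) encodes PA200, a nuclear activator linked to histone turnover and DNA repair. It had 43.9, 51.1 and 36.4 CPM inside and 70.0, 47.6, 59.3 and 54.5 outside. Inside libraries 1 and 3 were below every outside library, but inside library 2 was above outside library 2. The mean was 43.8 ± 7.34 CPM inside (SD, n = 3) and 57.9 ± 9.43 outside (SD, n = 4). On the log2 scale the fold change was -0.40 ± 0.18 (SE), with an unadjusted P of 0.046 and an adjusted P of 0.511 in edgeR. Leaving out a library in turn gave log2 fold changes from -0.53 to -0.28.

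Psmf1 encodes PI31, an inhibitor of the core in vitro. It had 31.0, 39.0 and 38.2 CPM inside and 54.9, 36.7, 38.4 and 33.4 outside. Only outside library 1 stood apart, above all the others. The log2 fold change was -0.18 ± 0.20 (SE; edgeR adjusted P = 0.860), and it was -0.005 without that library.

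The assembly factors comprise Psmg1 to Psmg4, chaperones that build the alpha ring, and Psmd5, Psmd9 and Psmd10, chaperones that build the base of the cap. Of the 7, 6 had a log2 fold change below 0, with a median of -0.24 in edgeR and -0.11 in limma. In edgeR the median was -0.08 without inside library 1 or without outside library 1. Psmd10 had the most negative value. It stood at 6.16, 6.84 and 6.19 CPM inside and at 12.01, 7.96, 6.76 and 5.47 outside. The outside libraries lay on both sides of the inside ones, with outside library 1 the highest. Its fitted log2 fold change was -0.33 ± 0.34 (SE; edgeR adjusted P = 0.845), and in limma, which gave outside library 1 the lowest weight of the 7, it was -0.08 ± 0.29. Without that library edgeR gave -0.07.

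Psmg1, Psmg2 and Psmg3 were at -0.25, -0.24 and -0.29, and Psmd5 and Psmd9 at -0.22 and -0.04 on the log2 scale. Psmg4 was the one gene of this class above 0, at 0.19 ± 0.31 (SE; edgeR adjusted P = 0.919). Summed, the assembly factors had 141.0, 204.7 and 181.4 CPM inside and 220.2, 210.0, 181.3 and 187.1 outside. Inside library 1 was far the lowest, and the other inside libraries lay within the outside range.

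Levels between genes were compared per length, as CPM per kilobase of the principal transcript (RPKM), over all 7 libraries. The class medians were 65.95 RPKM for the alpha ring without Psma8, 67.6 for the beta ring, 75.0 for the ATPases and 49.7 for the non-ATPases. Activators and inhibitor had a median of 35.8 and assembly factors of 18.98 RPKM. Subunits that the particle holds in equal number differed in measured level, from 31.1 (Psma3) to 161.0 RPKM (Psma1) in the alpha ring. In the beta ring they ran from 26.2 (Psmb5) to 151.2 RPKM (Psmb6). Psma3 and Psmb5 shared 21.3% and 40% of their windows with other genes, whereas Psma1 and Psmb6 shared none. The principal transcript was 2846 bases for Psma3 and 1201 for Psma1. The part of dropped multi-mapping reads and of these lengths in the ranges was not tested. The ATPases were closer together, from 34.2 (Psmc6) to 82.1 RPKM (Psmc3).

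Among the activators the order by principal transcript was Psme1, Psme2, Psme3, Psmf1 and Psme4. Psme1 had 185.9 ± 42.3 RPKM inside and 168.9 ± 26.5 outside, which does not differ beyond the spread from Psme2, at 175.8 ± 49.4 and 154.6 ± 12.7 (SD, n = 3 and 4). Psme1 shared 3.85% of its windows with other genes and Psme2 51.7%, and the part of dropped multi-mapping reads in their order was not tested. Psme3 was far lower, at 36.5 ± 4.20 and 35.3 ± 4.03 RPKM. Psmf1, at 9.46 ± 1.15 and 10.7 ± 2.51, and Psme4, at 6.75 ± 1.13 and 8.91 ± 1.45, were neighbours at the bottom whose ranges overlap outside the graft. With the length of all annotated exon bases in place of the principal transcript the class medians fell, to 37.2 RPKM for the alpha ring and 26.2 for the beta ring, and the lowest beta gene became Psmb7. The highest genes of the alpha ring, beta ring and ATPases became Psma6, Psmb2 and Psmc5. At both ends of the activators the order turned, with Psme2 at 89.2 and Psme1 at 88.7 RPKM, and Psme4 at 6.18 and Psmf1 at 6.02.

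**Figure D4:**
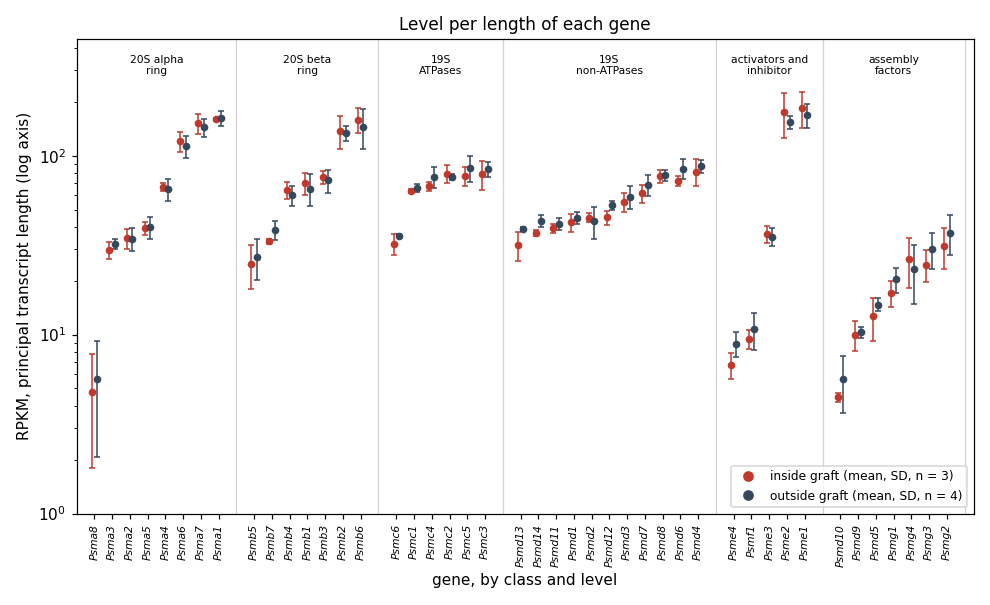
The vertical axis is a log axis of RPKM by principal transcript length, with 1 pair of points per tested member for the mean and SD of the 3 inside and 4 outside libraries, ordered by class and level. Psme1 and Psme2 top the activators (in the other order by exon length), Psma8 and Psmd10 have the lowest levels, and the points of each pair lie close together.

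The other genes of the pathway were taken from a list by role. Of its 32 genes, all were tested and none passed an adjusted P of 0.05 in edgeR. The list covers subunits outside the naming rule, deubiquitinases and other partners, shuttle factors, the p97 unfoldase, ubiquitin genes and regulators, and its median log2 fold change was 0.04. Nfe2l1, the transcription factor that raises proteasome genes when proteasome activity falls, was at -0.14 ± 0.14 (SE; edgeR adjusted P = 0.839). Pomp, which matures the core, was at 0.15 ± 0.16 (SE; edgeR adjusted P = 0.858). Psmb9, the immunoproteasome counterpart of Psmb6, was the only listed gene with an unadjusted P below 0.05 in edgeR, 1 of 32 against 5.76% of all genes higher and 3.79% lower, with 92.4, 164.1 and 131.1 CPM inside and 106.6, 93.4, 89.8 and 86.3 outside. Its log2 fold change of 0.46 ± 0.18 (SE) had an adjusted P of 0.427 in edgeR. In limma Psmb9 and the ubiquitin gene Rps27a were below an unadjusted P of 0.05, at adjusted P of 0.324 and 0.300. Their log2 fold changes were 0.44 and 0.48. That is 2 of 32, against 7.47% of all genes higher and 4.71% lower in limma.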

How the data were processed

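RNA of CD11b+CD45low cells from 3 inside and 4 outside samples was amplified from low input (SMARTer v4, Nextera XT) and sequenced as single reads. Per the submitters' processing notes and file headers, the authors used bcl2fastq 2.18, STAR 2.7.2a with GENCODE M21 on GRCm38.p6, and featureCounts 1.6.2, and deposited raw counts per gene name, without normalization. By those settings multi-mapping reads were dropped, which lowers members with close copies elsewhere in the genome, and both strands were counted together. No molecular identifiers mark the amplified reads, so PCR copies count repeatedly and intervals and floors cover counting error only.

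From the deposited counts, genes were filtered by group with filterByExpr, leaving 15257, and scaled by TMM. The edgeR 4.0.16 quasi-likelihood test (glmQLFit, glmQLFTest) was the first test and limma 3.58.1 voomWithQualityWeights, the study's method, the second, in R 4.3.3. P-values were adjusted by Benjamini-Hochberg over all genes tested, with thresholds of 0.01 and 0.05. Both tests were two-sided. Standard errors of edgeR are those implied by its F statistic. Scripts were tested on simulated data.

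Alternatives were other scalings, filters, DESeq2 1.42.0, voom without weights, edgeR's newer dispersion setting, a replicate block and leaving out each library. The direction counts of cap and core, the scalings for overlap and the principal transcript length were added after seeing the data. Shared sequence was measured in windows of 75 bases between principal transcripts and all other annotated transcripts.

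Members, classes, gene lists and tests were chosen with earlier results of these data known. Given with every library were the catalytic subunits, activators, Psmf1, each member with an unadjusted P below 0.05 and the member of largest fold change of each class, and, added later, members whose groups did not overlap. Groups and replicate numbers come from the labels, and every library was used.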

Additional observations from a re-analysis of the deposited data

Results flagged for a closer look

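In the 4 outside libraries, 4 of 44 members had 1 library far from the other 3 (Dixon's test at the 95% level), where chance gives about 1 in 20, or 2.2 of 44. Outside library 2 was the high one for 3 of them. Psmb2 had 132.0 CPM there and 108.7 to 109.7 in the others, the 19S ATPase Psmc5 had 140.5 CPM against 100.9 to 104.7, and the core chaperone Psmg4 had 19.93 CPM against 9.765 to 11.1. Psmd13 was low in outside library 3, at 74.39 CPM against 78.18 to 78.73, a small gap within a narrow group.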

How the results depend on the processing

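No member passed an adjusted P of 0.01 under any alternative to either test, nor 0.05 under any alternative to edgeR, where the lowest member value was 0.252, without inside library 2. Genes called at 0.01 over the whole table did change: edgeR called 0 as run, 15 at 0.05, 190 without a filter on low counts, 20 with at least 10 counts in every library and 40 with its newer dispersion setting, while voom without weights called 1 and DESeq2 232. With voomWithQualityWeights 3 were called, 75 at 0.05, 1 with library size alone, 41 without a filter and 48 with at least 10 counts. Leaving out 1 library gave 0 to 1 and 0 to 33 genes in the 2 tests. Members at an unadjusted P below 0.05 numbered 1 in edgeR, 0 with RLE, 3 with library size alone (Psmd13, Psme4, Psmd12), 2 with voom without weights, and 0 to 2 without 1 library. Of all 15257 genes 1457, 1445, 1548 and 1585 were below it with all libraries, in the same order. Without 1 library 1160 to 1538 genes were, of 14867 to 16041 tested. The causes were not tested.

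The labels do not say whether same-numbered libraries share a mouse, and the libraries were treated as unpaired. Same-numbered deviations correlated at -0.04, 0.09 and 0.07 over genes, which does not settle it. A replicate block, to which outside library 4 adds nothing, gave 5 genes in edgeR and 77 in limma. With it edgeR had 0 members at an unadjusted P below 0.05, against 1257 of 14900 genes, and 15 of 17 cap genes below 0.

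The cap count of 15 of 17 held under each other scaling, filter and test. Without 1 library it ran from 11 to 16, and the core count from 4 to 10. Medians without 1 library ran from -0.1408 to -0.0006 for all members, from -0.135 to -0.0481 for ATPases, from -0.1839 to -0.0766 for non-ATPases and from -0.3474 to -0.081 for assembly factors. The medians of the other classes fell on both sides of 0. They ran from -0.0272 to 0.0648 for the alpha ring, from -0.0149 to 0.14 for the beta ring and from -0.0627 to 0.1157 for activators and inhibitor. Over all 44 tested members the count below 0 ran from 22 to 35 without 1 library, against 29 as run. By gene, turned directions were listed only for the members given with every library. Among these, directions that turned when 1 library was left out had ranges of -0.3756 to 0.0592 for Psmb5, -0.0087 to 0.3188 for Psmb6, -0.0542 to 0.2735 for Psme1, -0.0627 to 0.3377 for Psme2, -0.0261 to 0.1344 for Psme3 and -0.7591 to 0.295 for Psma8. Psmb5 turned without inside library 3 (0.0145) or outside library 2, Psme3 without inside library 1 or outside library 2 (-0.0185), Psma8 without inside library 2 (0.162) or outside library 1, and the others without inside library 2. Without outside library 1 Psmf1 moved to -0.005, Psmd10 to -0.0721 and Psmb7 to -0.1318, and without outside library 2 Psmc4 moved to -0.0905. With 3 and 4 libraries, differences smaller than the intervals given were not detectable.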
